A study of Drosophila melanogaster with 2 samples.

Results

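A total of 58 genes of Drosophila melanogaster that carried only a CG number in the deposited table, and that lie outside the left and right arms of chromosome 3 (3L and 3R), had at least 2-fold more RNA in whole heph2 males than in control males. They were selected on the measured values themselves. A gene was a member when its symbol began with CG and a digit, its locus was not on 3L or 3R, its FPKM was above 0 in both libraries with a mean of 1 to 100, and the log2 ratio of heph2 over control was at least 1. FPKM counts the fragments of a gene, divided by the length of its transcript in kilobases and by the depth of the library. Of the 14794 genes in the table, 3224 met every part of the rule except the ratio and are called comparable genes below, so that the members were 58 of 3224. Below, on chromosome 3 means a locus on 3L or 3R, and every other locus counts as off it. Loci on separate sequences of chromosome 3, such as 3RHet, therefore count as off chromosome 3.

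The experiment asked which messenger RNAs are misregulated in flies that carry a P element, a mobile DNA element, in heph (hephaestus), the gene of the polypyrimidine tract-binding protein dmPTB. Polyadenylated RNA was taken from whole adult males at 1 to 3 days after eclosion. A library was made from heph2 homozygotes (heph2/heph2) and another from heph2/TM3 males, which the study treats as its wild-type control. Both genotypes therefore carry a heph2 chromosome, and the control has the other copy of chromosome 3 replaced by the balancer TM3, a rearranged chromosome that does not recombine with its partner. Each genotype had 1 library, so the spread between samples of a genotype is unknown, no test was run, and every comparison is between these libraries.

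A CG number is the identifier that the Drosophila genome annotation gives to a gene, and it serves as the symbol as long as no other name is assigned. Some of these genes have since received names, and those names give a first view of what the members do. Among them are digestive and lysosomal sugar enzymes, which take apart maltose in the gut lumen or trim mannose from glycoproteins in lysosomes, and an enzyme of fat synthesis. dmPTB itself is an RNA-binding protein that controls alternative splicing and is needed for male fertility.

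heph (FBgn0011224, 3R from 27676704 to 27819000 in r5.44 coordinates) stood at 44.0 FPKM in control males and at 27.2 FPKM in heph2 males, 61.8% of the control level (log2 ratio -0.69). The value pools transcripts on both sides of the insertion, so it does not give the level of full-length transcripts. The study reports that the large majority of heph transcripts are truncated in heph2 homozygotes. In the table as a whole, 11962 genes had a mean of at least 1 FPKM and a value above 0 in both libraries. Their median log2 ratio was 0.01, with 334 genes (2.79%) at least 2-fold higher in heph2 and 292 genes (2.44%) at least 2-fold lower. Marker genes of whole organs also differed between the libraries. The summed level of 10 eggshell genes went from 213 to 14.7 FPKM although both libraries are labelled male, and none of the 10 was listed at 0 in either library. The 7 accessory gland genes went from 13901 to 8235 FPKM and were all lower, and the sum over 13 testis genes went from 8668 to 14597 FPKM. Of the 12 testis genes compared 8 had a ratio above 0 and 4 below 0, and 1 was at least 2-fold higher. In RNA of whole animals, fewer cells of a type and less RNA per cell cannot be told apart.

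The members were 1.8% of the comparable genes, and 59 comparable genes (1.83%) were at least 2-fold lower. The median log2 ratio of all 3224 comparable genes was 0.01, and the middle 50% of them lay between -0.24 and 0.26. The members' own ratios ran from 1.01 to 1.98 with a median of 1.33, which is 2.01-fold to 3.95-fold with a median of 2.51-fold. Since the ratio chose the members, these values describe the choice and test nothing. In all, 12 members were at least 3-fold higher and 0 were at least 4-fold higher. Their control levels ran from 0.814 to 54.5 FPKM (median 7.29) and their heph2 levels from 1.78 to 132 FPKM (median 19.2), so that the members covered most of the range of levels that the rule allowed.

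**Figure D1:**
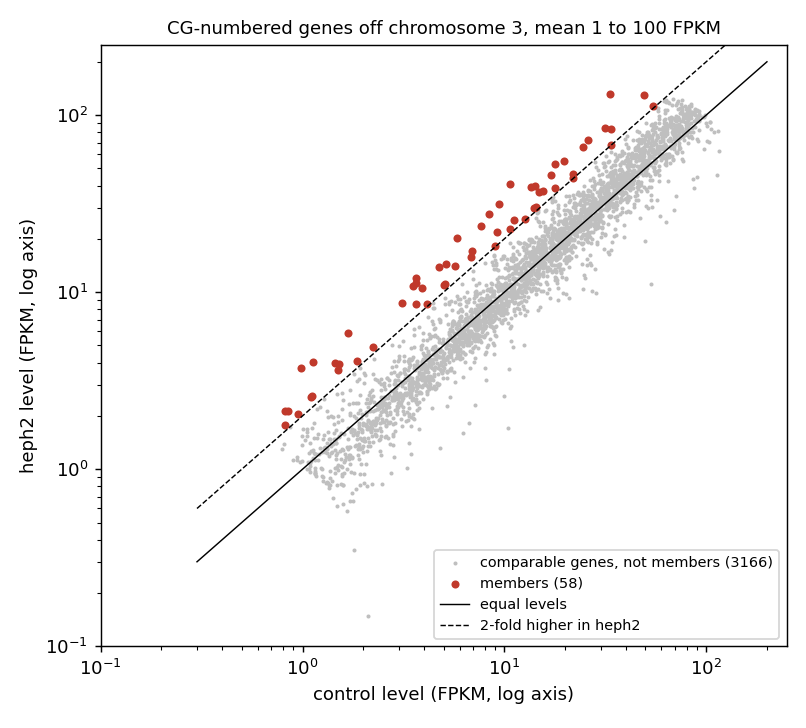
Level of each of the 3224 comparable genes in the control library (horizontal axis, FPKM, log scale) and in the heph2 library (vertical axis, FPKM, log scale), with the 58 members in red, the line of equal levels and the dashed line of a 2-fold difference. The members lie along the upper edge at every level from about 1 FPKM upwards, and most other genes lie close to the line of equal levels.

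Genes of the same kind on chromosome 3, with a CG number and a mean of 1 to 100 FPKM, numbered 2632, of which 64 (2.43%) were at least 2-fold higher and 108 (4.10%) at least 2-fold lower. Genes off chromosome 3 at the same levels that already had a name in the table numbered 2408, with 40 (1.66%) higher and 45 (1.87%) lower. The CG-numbered genes off chromosome 3 with a mean over 100 FPKM stood differently, with 47 of 616 (7.63%) higher and 6 (0.974%) lower. Of those 47 genes, 27 now carry the symbol of a respiratory chain or ATP synthase subunit. No member does, but such symbols were rare at the members' levels, with 3 among the 3224 comparable genes and 38 among the 616 more abundant ones.

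Near the threshold, the lowest members were CG12868 (33.9 to 68.2 FPKM, control first), CG9897 (8.998 to 18.2 FPKM), CG14210 (21.9 to 44.2 FPKM), CG32633 (12.7 to 25.8 FPKM) and CG13155 (54.5 to 113 FPKM), whose heph2 levels were 201% to 207% of control. The comparable genes just below it were CG33137 (0.863 to 1.72 FPKM), RPA3 (CG15220, 17.3 to 34.6 FPKM), Mthfs (CG34424, 33.8 to 67.1 FPKM), LUBEL (CG11321, 14.8 to 29.1 FPKM) and CG34040 (55.9 to 110 FPKM), at 196.1% to 199.8% of control. The edge of the group therefore falls inside a continuous range of ratios.

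In current annotations 15 of the 58 members have a name of their own, 41 are still known by their CG number, and 2 (CG30470 and CG42262) had no entry. The largest named family was that of the lysosomal alpha-mannosidases, enzymes that remove mannose from glycoproteins in the lysosome. LManIII (CG9463) measured 3.12 FPKM in control and 8.68 FPKM in heph2 males, a log2 ratio of 1.48. LManV (CG9466) had 7.63 and 23.7 FPKM, a log2 ratio of 1.64. LManVI (CG9468) had 17.8 and 53.0 FPKM, a log2 ratio of 1.58. All 3 lie in a row on 2L between 8765359 and 8781251, together with LManIV (CG9465), which had 0.179 and 0.426 FPKM and was below the minimum level. The remaining genes of the family lie elsewhere, are not members and had smaller ratios. The ratio was 0.87 for LManI (CG5322, 5.06 to 9.27 FPKM). It was 0.39 for LManII (CG6206, 33.9 to 44.5 FPKM), the gene of this family with the highest control level. Over the 5 mannosidase genes compared, 3 were at least 2-fold higher, 5 had a ratio above 0, and the median was 1.48, where the median of all genes compared was 0.01. Since members were chosen for their ratio and 3 of these 5 genes are members, the counts and the median only describe the list, and the same holds for the other families below.

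The maltases, alpha-glucosidases that split maltose and related sugars into glucose, held 2 members. Mal-A4 (CG8693, 2R from 4346329 to 4348389) stood at 14.2 FPKM in control and 39.7 FPKM in heph2 males, a log2 ratio of 1.48. Mal-A7 (CG11669, in a 2R locus entry shared with Mal-A8) had 31.7 and 84.8 FPKM, a log2 ratio of 1.42. Mal-A3, which the table lists by an older name and which the rule therefore left out, lies next to Mal-A4 and had 10.7 and 31.1 FPKM, a log2 ratio of 1.54. The other genes of the same stretch of 2R had smaller ratios, all above 0. These were 0.54 for Mal-A1, 0.90 for Mal-A2, 0.45 for Mal-A5, 0.43 for Mal-A6 and 0.87 for Mal-A8. Outside that stretch tobi had a ratio of 0.63, while Mal-B1 (-0.09) and Mal-B2 (-0.07) on 2L were close to equal in both libraries. Of the 11 maltases compared, 3 were at least 2-fold higher, 0 were at least 2-fold lower, and the median was 0.63.

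Maltases and digestive proteases are made in the gut, and the marker list of the adult gut moved in the same direction. It held alphaTry, betaTry, gammaTry, deltaTry, epsilonTry, thetaTry, iotaTry, Jon25Bi, Jon25Bii, Jon99Ci, Amy-p and Amy-d. All of these are genes of digestive enzymes, as the maltases are, so the list does not measure gut tissue as such. All 10 of the 12 gut markers that could be compared had a ratio above 0, 5 of them at least 2-fold, with a median of 0.80. Their summed level was 1855 FPKM in the control and 2650 FPKM in heph2, and 1 of the 12 was listed at 0 in both libraries. The part of gut RNA as a whole in the maltase values was not tested.

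Fat synthesis was represented by a pair of neighbours on 2R. Dgat2 (CG1942, 3600128 to 3601695) encodes a diacylglycerol acyltransferase, the enzyme of the last step of triacylglycerol synthesis, and went from 8.39 FPKM in control to 27.5 FPKM in heph2 males, a log2 ratio of 1.71. CG1946, which follows it at 3602488 to 3604296, had 1.69 and 5.84 FPKM, a log2 ratio of 1.79. CG1941, which precedes it, had 13.8 and 13.4 FPKM, a log2 ratio of -0.04. The locus thus held a gene at equal levels directly beside genes that were over 3-fold higher. mdy, the gene of the other kind of diacylglycerol acyltransferase, had a ratio of 0.65 (13.3 to 20.9 FPKM). Over these 4 genes, 2 were at least 2-fold higher and the median was 1.18. hll (CG4500), a relative of the acyl-CoA synthetase gene bubblegum (bgm), was higher too, with 1.13 and 4.02 FPKM and a log2 ratio of 1.83, and it carries bgm-l among its synonyms. bgm itself, looked up after the values were seen, had 29.0 and 23.9 FPKM, a log2 ratio of -0.28.

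Pepck2 (CG10924, 2R from 14414937 to 14423263) is one of the genes of phosphoenolpyruvate carboxykinase, which makes phosphoenolpyruvate from oxaloacetate on the way to glucose. It measured 1.52 FPKM in control and 3.94 FPKM in heph2 males, a log2 ratio of 1.37. Its neighbour Pepck1, named in the table and far more abundant, had 309 and 701 FPKM, a log2 ratio of 1.18. Both genes of this enzyme were thus over 2-fold higher in heph2. The fat body, the tissue in which much of the fat and sugar metabolism of the fly takes place, had mixed marker values. Of its 8 markers 4 were at least 2-fold higher and 3 at least 2-fold lower. Their sum went from 559 to 1252 FPKM, and none was listed at 0. Their log2 ratios ran from -5.09 to 1.70, where the median of the eggshell genes compared was -5.35. The list includes Yp1 to Yp3, whose yolk products are typical of females, so it does not measure male fat body alone. How much such female RNA weighs in the mixed values was not tested. The part of fat body cells in the values of Dgat2 and Pepck2 was not tested either.

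**Figure D2:**
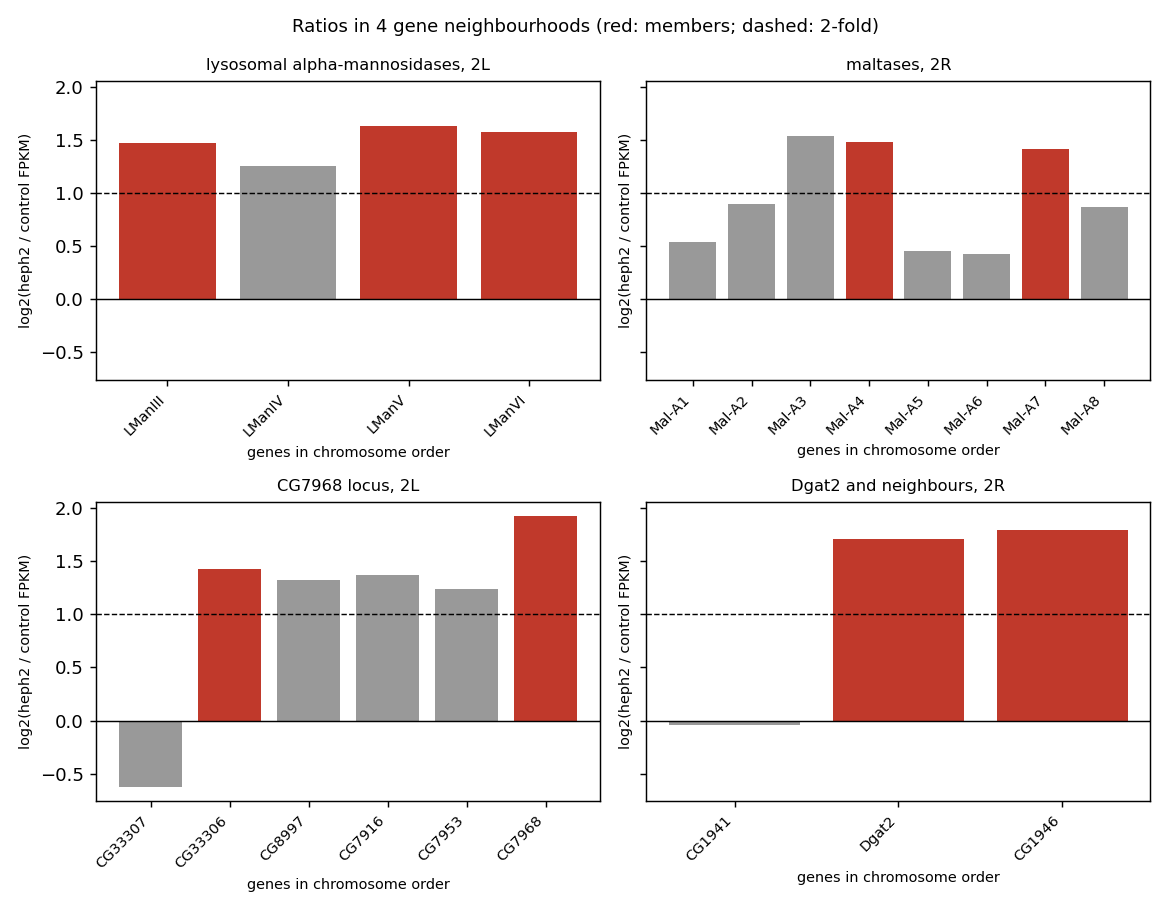
Log2 ratio of heph2 over control FPKM (vertical axis) for the genes of 4 neighbourhoods in chromosome order (horizontal axis), with members as red bars, other genes as grey bars and a dashed line at 2-fold. All 4 mannosidase genes and all 8 maltase genes drawn are above 0, whereas CG33307 (-0.63) and CG1941 (-0.04) are below 0 beside members.

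CG7968 and CG33306 share a locus entry on 2L, from 13835567 to 13898715, with CG7916, CG7953, CG8997, CG33307 and a further gene. CG7968 stood at 10.7 FPKM in control and 40.8 FPKM in heph2 males, a log2 ratio of 1.93, and CG33306 had 17.0 and 45.7 FPKM, a log2 ratio of 1.42. CG8997 (149 to 371 FPKM), CG7916 (69.7 to 180.03 FPKM) and CG7953 (73.4 to 173 FPKM) were above the highest mean level that the rule allowed, and their ratios were 1.32, 1.37 and 1.24. CG33307 alone had a ratio below 0, with 35.2 and 22.8 FPKM and a log2 ratio of -0.63. The 6 genes together went from 355 FPKM in control to 834 FPKM in heph2 males, with a median ratio of 1.34. Because the entry is shared, its position is that of the region and not of each gene.

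sloth1 (CG32736, X from 6905394 to 6906169) encodes a small mitochondrial protein and is translated from the same messenger RNA as sloth2 (CG42308). The table gave each gene its own value. sloth1 measured 19.7 FPKM in control and 55.0 FPKM in heph2 males, a log2 ratio of 1.48, while sloth2 had 37.4 and 32.2 FPKM, a log2 ratio of -0.21. In the later annotation the exons of sloth1 overlapped those of sloth2 on the same strand over 100% of their length. Reads from this region cannot be assigned to either gene with certainty, and the sum of both values went from 57.1 to 87.2 FPKM, which is 1.53-fold.

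Amnionless (CG11592), which with Cubilin forms a receptor for protein uptake, stood at 3.64 FPKM in control and 11.2 FPKM in heph2 males, a log2 ratio of 1.62. Over 55.0% of its exon length an antisense RNA is annotated on the other strand. Of the Cubilin genes, looked up after the values were seen, Cubn had a ratio of 0.30 (1.49 to 1.84 FPKM). Cubn2 was below the minimum level, with 0.510 and 1.15 FPKM and a ratio of 1.17. Diedel3 (CG34329) had 26.0 and 71.9 FPKM, a log2 ratio of 1.47. It is a relative of Diedel, a secreted protein that dampens immune signalling, and Diedel itself was below the minimum level, with 0.406 and 0.940 FPKM.

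Some further members with a name, or with a synonym that gives their family, had levels below 5 FPKM in both libraries. CARPB (CG32698), a carbonic anhydrase-related protein gene, went from 2.25 FPKM in control to 4.87 FPKM in heph2 males, a log2 ratio of 1.12. It was the only one of 13 carbonic anhydrase genes compared to be at least 2-fold higher, and CAH16 was at least 2-fold lower (13.6 to 6.46 FPKM, log2 ratio -1.07). The median of the 13 genes was 0.02, and 7 of them had a ratio above 0. CG12896, for which Prx12896 is a synonym and which belongs to the peroxiredoxins, enzymes that reduce peroxides, had 1.10 and 2.56 FPKM and a log2 ratio of 1.23. The related Prx6c (338 to 522 FPKM), Prx6b (93.4 to 143 FPKM) and Prx6a (21.5 to 26.9 FPKM) had ratios of 0.63, 0.62 and 0.33. AgmNAT (CG15766), an agmatine N-acetyltransferase gene, had 0.849 and 2.14 FPKM and a log2 ratio of 1.33. The N-acetyltransferase genes AANATL2, AANATL3 and AANATL7, looked up after the values were seen, had ratios of 0.75, 0.87 and -0.83.

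CNT2 (CG8083), a nucleoside transporter gene, measured 4.13 FPKM in control and 8.53 FPKM in heph2 males, a log2 ratio of 1.05. Its neighbour CNT1, which makes a transporter of the same kind, had 22.9 and 23.3 FPKM, a log2 ratio of 0.02. SmydA-7 (CG9640) had 11.2 and 25.6 FPKM, a log2 ratio of 1.20, and the adjacent SmydA-6 had 1.32 and 2.14 FPKM, a log2 ratio of 0.70. Both belong to a family of proteins with a SET and a MYND domain. CG1304, which carries the serine protease synonym SP46, had 15.5 and 37.1 FPKM and a log2 ratio of 1.26, and the nearby protease gene Ser6 had 21.0 and 41.8 FPKM and a ratio of 0.99. The genes CNT1, SmydA-6, Ser6 and Diedel were looked up after the values were seen.

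Among the members that have no name, CG12057 (X from 9085706 to 9086582) had both the largest ratio and one of the highest levels, with 33.5 FPKM in control and 132 FPKM in heph2 males, a log2 ratio of 1.98. CG9826 (2R from 18728358 to 18729988) had the next ratio at a much lower level, with 0.979 and 3.73 FPKM and a log2 ratio of 1.93. CG7763 had 5.84 and 20.2 FPKM, a log2 ratio of 1.79. The upper end of the ratios was thus reached by abundant and by scarce transcripts.

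CG42587 (2L from 14744897 to 14745210) stood at 9.38 FPKM in control and 31.3 FPKM in heph2 males, a log2 ratio of 1.74. The member CG42681 lies just before it and had 1.503 and 3.61 FPKM, a log2 ratio of 1.26. CG34166, on the other side of CG42681 and far above the level range of the rule, had 2129 and 5618 FPKM, a log2 ratio of 1.40. These 3 short genes thus stood side by side at very different levels, each over 2-fold higher in heph2. CG7025 (3.66 to 11.9 FPKM) and CG18585 (9.25 to 21.9 FPKM) lie in neighbouring locus entries on 2L, with log2 ratios of 1.71 and 1.24.

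The highest mean level was that of CG8093 (2R from 11101837 to 11103105), with 49.2 FPKM in control and 131 FPKM in heph2 males, a log2 ratio of 1.41. The lowest was that of CG30470, with 0.816 and 1.78 FPKM and a log2 ratio of 1.12. Other members at over 20 FPKM in the control were CG1368 (33.6 to 83.6 FPKM), CG15369 (24.6 to 66.4 FPKM) and CG34163 (22.0 to 46.2 FPKM), with log2 ratios of 1.32, 1.43 and 1.07. Members between 10 and 20 FPKM in the control that are not described elsewhere were CG13962 (13.6 to 39.3 FPKM), CG5966 (14.8 to 37.0 FPKM), CG33228 (17.9 to 38.7 FPKM), CG32983 (14.3 to 30.2 FPKM), CG14406 (14.0 to 29.9 FPKM) and CG42262 (10.7 to 22.8 FPKM). Among these 6 the log2 ratios were 1.54 for CG13962, 1.32 for CG5966 and 1.08 to 1.11 for the other genes.

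Below 10 FPKM in the control the ratios of the remaining members covered much of the same range. Above 1.4 were CG30479 (3.54 to 10.9 FPKM, log2 ratio 1.62), CG7631 (4.77 to 13.9 FPKM, 1.54), CG13215 (5.16 to 14.4 FPKM, 1.48), CG17681 (1.45 to 3.98 FPKM, 1.46) and CG15120 (3.89 to 10.499 FPKM, 1.43). Between 1.2 and 1.4 were CG4017 (0.814 to 2.12 FPKM, 1.38), CG14634 (6.94 to 17.1 FPKM, 1.30), CG13144 (5.70 to 14.0 FPKM, 1.30), CG6012 (3.65 to 8.56 FPKM, 1.23), CG13230 (1.11 to 2.58 FPKM, 1.21) and CG34206 (6.86 to 15.8 FPKM, 1.20). The lowest ratios here were those of CG32817 (1.85 to 4.10 FPKM, 1.14), CG31636 (5.05 to 11.1 FPKM, 1.13), CG1537 (5.02 to 10.9 FPKM, 1.13) and CG4763 (0.949 to 2.06 FPKM, 1.12). No role is given for these genes, since the names at hand carry none.

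**Figure D3:**
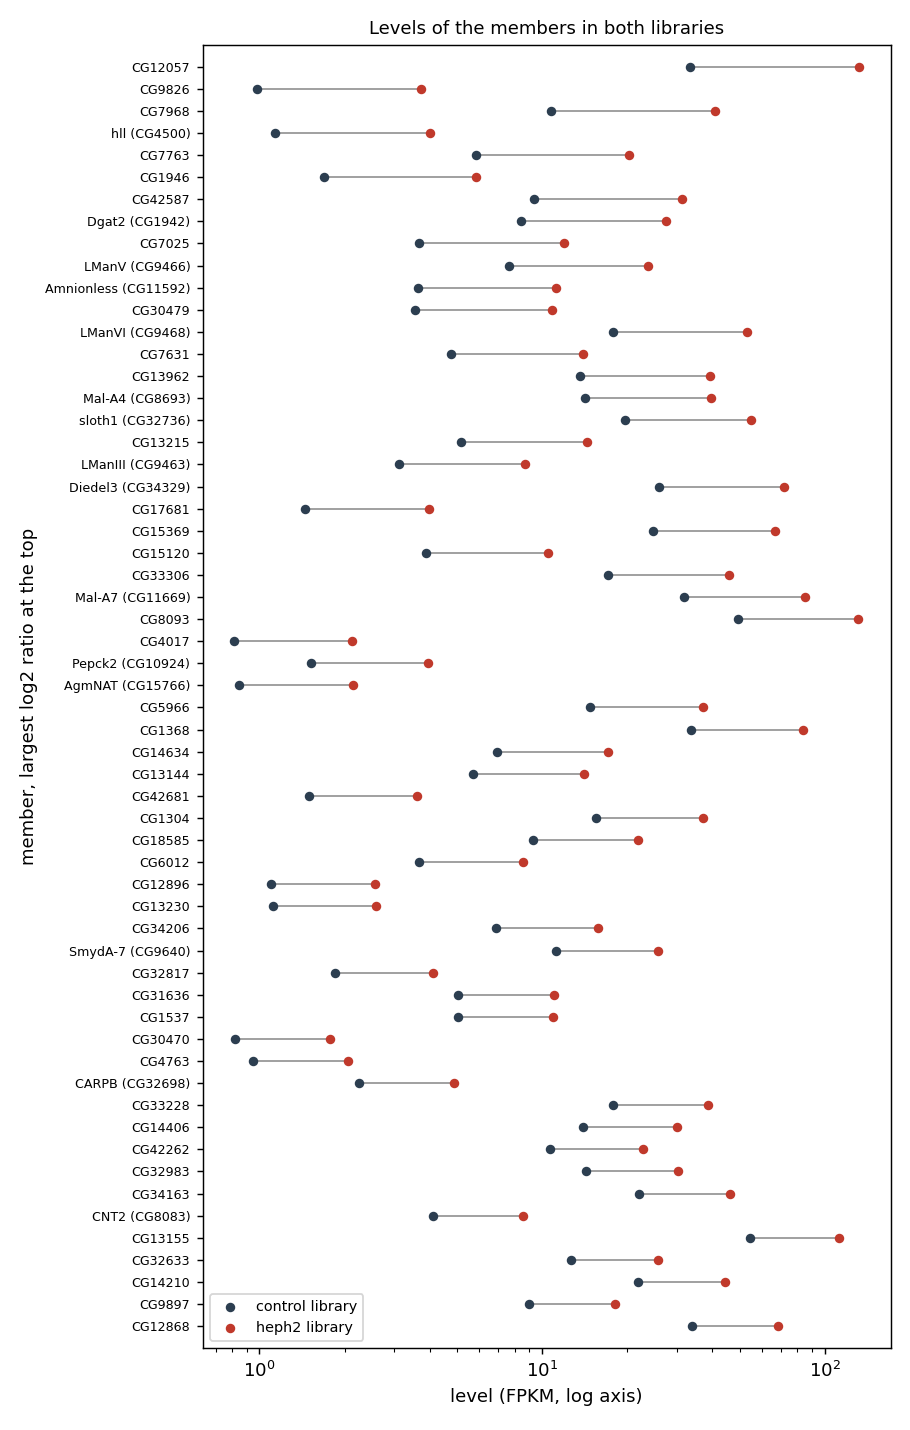
Level of each of the 58 members (horizontal axis, FPKM, log scale) in the control library (dark points) and in the heph2 library (red points), ordered from the largest log2 ratio (CG12057, 1.98) at the top to the smallest (CG12868, 1.01) at the bottom. Control levels run from 0.814 to 54.5 FPKM, and members of high and low level are mixed along the order.

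The members were spread over the arms that the rule left in. On 2L they were 20 of 1067 comparable genes (1.87%), on 2R 22 of 1112 (1.98%) and on the X chromosome 16 of 967 (1.65%). They were 0 of the 22 comparable genes of chromosome 4 and 0 of the 56 on other sequences. Of those 56 genes, 7 (12.5%) were at least 2-fold lower. The members' share also varied little with level, at 14 of 743 genes between 1 and 5 FPKM, 12 of 572 between 5 and 10, 19 of 1022 between 10 and 30, and 13 of 887 between 30 and 100. Genes at least 2-fold lower, by contrast, were 31 of 743 in the lowest band and 9 of 887 in the highest.

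Of the 58 members, 13 had a locus entry within 10 kb of that of another member, or shared with it, in 6 groups, and 45 lay alone. The groups were the mannosidases, the maltases, Dgat2 with CG1946, CG7968 with CG33306, CG42587 with CG42681, and CG18585 with CG7025. Distances were taken between locus entries, which can span many genes, so a gene counted as near need not lie within 10 kb of the member itself. On this count there were 262 compared genes near a member that were not members. Of these, 9 (3.44%) were at least 2-fold higher and 2 at least 2-fold lower, against 2.79% and 2.44% of all genes compared, and their median ratio was 0.05. Without the 37 genes that share an entry with a member, 5 of 225 (2.22%) were at least 2-fold higher and 2 at least 2-fold lower. The 9 genes were CG7916, CG7953, CG8997, CG34166, Mal-A3 and Pepck1, given above, with CG16926 (559 to 1352 FPKM), which overlaps CG15120 on the other strand, Cpr49Ab, a cuticle protein gene beside CG13155 (254 to 567 FPKM), and ND-19, a complex I subunit gene.

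The members' transcripts were shorter than those of the other comparable genes. The 55 members with a length had a median transcript of 893 nucleotides, against 1655.5 nucleotides over the comparable genes that were not members. Their coding length had a median of 780 nucleotides against 1218, and 12 of the 55 (21.8%) had a coding length of up to 400 nucleotides, against 7.13%. These 12 were CG42587, CG30479, sloth1, CG13215, Diedel3, CG15369, CG14634, CG42681, CG13230, CG32817, CG14406 and CG34163. Genes with 1 exon were as common among the members (16.4%) as among the others (16.2%). The comparable genes that were at least 2-fold lower were short as well, with a median transcript of 1015 nucleotides, so that short length was shared by genes at both ends of the ratios.

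Split by length, 30 of the 711 comparable genes with transcripts of up to 1000 nucleotides were members (4.22%) and 24 (3.38%) were at least 2-fold lower. In the longest class, transcripts of over 3000 nucleotides, 4 of 494 genes were members (0.81%), namely LManIII, LManV, LManVI and CG5966, and 2 (0.405%) were lower. The ratios of all comparable genes moved with length, with a median of 0.30 in the shortest class and -0.22 in the longest. When the median ratio of genes of like length and level was taken off each ratio, 45 of the 55 members with a length were still at least 2-fold higher, the median was 1.23 and the lowest was 0.65. The 10 that were not were CG1368, CG33228, CG14406, CG32983, CG34163, CG13155, CG32633, CG14210, CG9897 and CG12868. The part of length in the members' ratios beyond this was not tested.

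**Figure D4:**
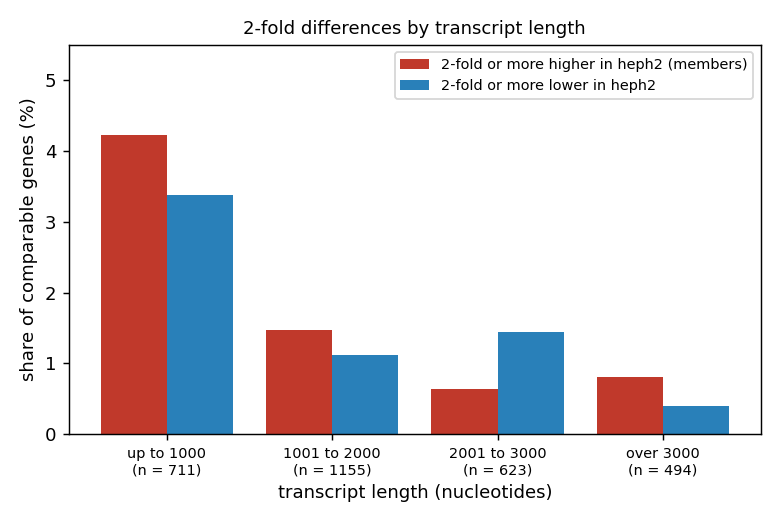
Share of comparable genes (vertical axis, percent) that were at least 2-fold higher in heph2 (red bars, the members) or at least 2-fold lower (blue bars), in 4 classes of transcript length in nucleotides (horizontal axis, number of genes under each class). The shortest class has the largest shares in both directions, 4.22% and 3.38%.

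FPKM values hold no read counts, but the low values moved in steps, from which the reads behind a gene could be estimated. On a kilobase of transcript, 1 read gave 0.0216 FPKM in control and 0.0332 FPKM in heph2 males, so that a read added 1.54 times as much FPKM in heph2 as in control. The read totals that the study gives for the libraries differ by a smaller factor. Summed over all genes, FPKM was 1138700 in control and 1386080 in heph2. Beyond the centring given below, the part of this scale in the members' ratios was not tested. Of the low genes with a single transcript, 64.8% of 548 in the control and 66.5% of 642 in heph2 fell within 0.1 of a whole read, against 20% if they were spread evenly. Estimated reads of the 55 members with a length ran from 6 to 3112 in the control (median 299.9) and from 9 to 5413 in heph2 (median 484). An exact 95% binomial (Clopper-Pearson) interval of the ratio, which covers counting error only, lay above 1-fold for 54 of the 55, above 1.5-fold for 50 and above 2-fold for 31. These intervals give the precision of ratios that chose the members and are no test of them. CG13230, with about 6 and 9 reads, was the exception, with an interval from 0.733-fold to 7.87-fold. In the control 7 members had fewer than 50 reads, among them CG42681 with about 10. The largest counts were those of Mal-A7, whose interval was 2.56-fold to 2.79-fold.

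A locus entry was shared with another gene by 18 of the 58 members, and 40 stood alone in theirs. In the later annotation 11 members had exons that overlapped those of another gene, 5 of them over at least 50% of their length. Besides sloth1 and Amnionless, CG30479 overlapped CG30480 on the same strand over 96.1%, and CG32983 (100%) and CG9897 (93.3%) overlapped antisense RNAs. The libraries are described as standard Illumina TruSeq, with no strand-specific step or counting named, so reads of these genes and of their partners cannot be told apart. How reads that match several genes were divided was not given either, so the values of single genes in the tandem families, the mannosidases, the maltases and Dgat2 with its neighbours, are uncertain to that extent.

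The number of members depended on the scale against which the ratios were set. The cytosolic ribosomal protein genes, 82 in number, had a median log2 ratio of 0.44. Members had ratios of at least 1, so the rule fixed that all 58 stayed above 0 when this was taken off every ratio. On that scale 21 were still at least 2-fold higher. With the median of all genes compared taken off instead, 57 were.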

How the data were processed

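Polyadenylated RNA of whole adult males was sequenced as single reads of 50 bases, 1 library per genotype. The authors mapped the reads with TopHat2 2.0.4 to FlyBase r5.44 and quantified genes with Cufflinks 2.0.0 (Cuffdiff is listed too). The deposited table gives each gene's FPKM in each library. It also holds the authors' log2 ratio, which was not used.

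Ratios are log2(heph2 FPKM / control FPKM) without a pseudocount. The start of a locus is counted from 0 in the table (1489 of 8716 genes alone in their locus have the BDGP6 length on that count, 146 otherwise), so 1 was added. BDGP6 and RefSeq gave current names and lengths only, and 13462 of 14794 genes matched. Reads were estimated from the FPKM steps and the median transcript length, capped at the locus (9 members), with fragments of 200 ± 80 bases assumed. The code for the ratios and for the read step was run on simulated data. These held added values at exact read steps, so recovery of the step there does not measure its accuracy in the real libraries.

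The members and the gene lists were chosen with earlier results of these data known. Of the lists 7 were used, and 7 were left out because they held no member or their genes could not be told by name. Named with values were heph, the 10 largest and 5 smallest member ratios, 5 genes below the threshold, members of a list or with a locus entry within 10 kb of another member's, the lowest and highest means, and the genes of those lists. Every other member is named at least once. Genes outside this rule were looked up after the values were seen, among them sloth2, CG34166, CG16926, Cpr49Ab and ND-19. Alternatives were pseudocounts, minimum levels, centring and genes alone in their locus. Python 3.11.15, numpy 2.4.6, pandas 2.3.3, scipy 1.17.1 and matplotlib 3.10.9 were used. Sequences of the members were not analysed here.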

Additional observations from a re-analysis of the deposited data

How the results depend on the processing

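The number of members was 58, and it moved by over 1.5 times under 3 alternatives. It was 103 with no minimum mean FPKM and 32 with a minimum of 10, which change the set of genes counted, and 21 with centring on the ribosomal protein genes, which lowers every ratio by 0.44. With no minimum the share of comparable genes rose from 1.8% to 2.80%. With a pseudocount of 0.1 or 1, a minimum of 5, centring on all genes, centring on genes of similar length and level, or only genes alone in their locus, the number was between 40 and 58. All 58 members kept a ratio above 0 under both pseudocounts and when centred on all genes or on the ribosomal protein genes, which the rule fixed in advance. Members had ratios of at least 1, these centres are 0.01 and 0.44, and a pseudocount keeps the sign of a ratio. The 55 members that had a length were also above 0 when set against genes of like length and level, with 0.65 as the lowest. The median of the carbonic anhydrase genes (0.02) was -0.42 when centred on the ribosomal protein genes and -0.19 when set against genes of like length and level, and no other list median changed sign. No paired analysis was possible because each genotype had 1 library. Without replicates the differences between flies of 1 genotype are unknown, and the reads behind each value are approximate because the transcript lengths come from a later annotation.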
